A study of Mus musculus with 13 samples.

Results

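The IL-1 family and inflammasome genes described here are 10 genes chosen by name: the ligands Il1a, Il1b and Il18, the inhibitors Il1rn and Il18bp, the receptor Il1r1, and the inflammasome genes Nlrp3, Pycard, Casp1 and Gsdmd. They are 10 of the 20270 genes in the deposited tables, and all 10 passed the filter on low counts, as did 15315 genes in all. RNA from the lower right lobe of the mouse lung was sequenced in 13 libraries. The 4 control libraries came from wildtype (WT) mice that received saline, and 5 libraries from WT mice that received a single oropharyngeal dose of bleomycin of 1 U per kg, a drug that injures the lung and leads to pulmonary fibrosis. The 4 CB1R KO libraries came from mice that lack Cnr1, the gene of cannabinoid receptor 1, and received the same dose, and both bleomycin groups were sampled after 14 days. The C57BL/6J mice were male and 13 weeks old, and the CB1R KO mice, whose age and litters are not given in the sources used here, carried the deletion in every tissue on a C57BL/6J background. Uninjured CB1R KO lungs were not analysed here, so an effect of the deletion by itself and one on the response to bleomycin cannot be told apart. Libraries carry the mouse numbers of their titles, which were 3, 21, 24 and 26 in the control group, 4, 2, 5, 4-B2 and 7 in the WT bleomycin group, and 8, 9, 10 and 11 in the CB1R KO bleomycin group. The titles of WT bleomycin 4 and 4-B2 share a mouse number, and the labels do not say whether they are separate mice. Their log2 CPM correlated at 0.979 over all genes tested, the lowest of the 10 pairs of WT bleomycin libraries (0.979 to 0.985), and except where they are summed they entered each fit as separate libraries.

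IL-1α and IL-1β bind the receptor IL-1R1, which signals through the adaptor MyD88 and IRAK kinases to NF-κB, and IL-1 receptor antagonist, encoded by Il1rn, occupies the same receptor without signalling. IL-1β and IL-18 are made as inactive precursors: a sensor such as NLRP3 assembles with the adaptor ASC, encoded by Pycard, into an inflammasome that activates caspase-1, which cleaves the precursors and opens gasdermin D pores in the cell membrane. IL-18 binding protein holds free IL-18 in check. In the injured lung this system is known for the recruitment of neutrophils and for a part in the fibrosis that follows. The data below are mRNA levels, and cleavage, secretion and pore formation were not measured.

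The promoters of Il1rn, Il18bp, Il1r1 and Pycard, the 4 members that rose with bleomycin in WT lungs, and of Il1b, a ligand that did not pass the test, are shown so that the letters ahead of each start can be compared. Each line holds the 250 bases before a RefSeq transcription start, 5′ to 3′ on the gene's strand, in build GRCm38.p6, and capitals mark the motifs found, which are named beside each gene.
Il1rn, first of 3 starts (chr2:24336610-24336859, plus strand), AP-1: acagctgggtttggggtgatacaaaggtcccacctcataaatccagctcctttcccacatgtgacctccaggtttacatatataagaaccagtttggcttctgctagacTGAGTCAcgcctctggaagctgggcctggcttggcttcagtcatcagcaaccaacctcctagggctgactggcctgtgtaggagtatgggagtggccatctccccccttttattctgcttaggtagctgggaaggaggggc
Il18bp (chr7:102018233-102018482, minus strand), C/EBP: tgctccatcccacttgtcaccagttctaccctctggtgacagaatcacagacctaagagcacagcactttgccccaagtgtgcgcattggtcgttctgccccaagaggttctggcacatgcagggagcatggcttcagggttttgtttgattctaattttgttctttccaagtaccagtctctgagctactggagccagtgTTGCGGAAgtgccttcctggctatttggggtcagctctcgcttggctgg
Il1r1, second of 2 starts (chr1:40266336-40266585, plus strand), kappaB: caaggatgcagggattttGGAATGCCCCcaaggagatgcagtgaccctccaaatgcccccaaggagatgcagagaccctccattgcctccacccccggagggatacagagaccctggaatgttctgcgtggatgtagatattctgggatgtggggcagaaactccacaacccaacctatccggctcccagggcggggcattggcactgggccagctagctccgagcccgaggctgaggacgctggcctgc
Pycard (chr7:127993868-127994117, minus strand), C/EBP and PU.1: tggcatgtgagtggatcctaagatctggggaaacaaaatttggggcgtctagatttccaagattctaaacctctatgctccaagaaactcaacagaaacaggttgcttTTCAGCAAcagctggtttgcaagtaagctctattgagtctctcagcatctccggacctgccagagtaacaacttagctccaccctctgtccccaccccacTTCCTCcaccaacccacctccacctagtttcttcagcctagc
Il1b (chr2:129371140-129371389, minus strand), TATA box: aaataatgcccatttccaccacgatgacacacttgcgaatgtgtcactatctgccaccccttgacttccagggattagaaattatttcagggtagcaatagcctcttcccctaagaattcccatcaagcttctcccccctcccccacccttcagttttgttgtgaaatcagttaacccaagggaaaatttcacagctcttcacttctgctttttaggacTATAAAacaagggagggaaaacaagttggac
Both strands were searched for the kappaB motif by its name, for AP-1 as TGANTCA, for C/EBP as TTGCNNAA, for PU.1 as GAGGAA and for the TATA box as TATAAA. No motif overlapped another in these lines, and AP-1 reads the same on both strands. The RefSeq table held 13 starts for 9 of the 10 members, Gsdmd being the one without an entry, and since Il1rn had 3 starts and Il1r1 and Nlrp3 had 2 each, matches are given per start. AP-1 stood ahead of the start of Il1a and the first start of Il1rn, against 6.75% of 32851 promoters of the same length. The kappaB motif stood ahead of the second start of Il1r1 and the first of Nlrp3, against 7.25% of all promoters. The C/EBP motif stood ahead of Il18bp, Pycard and the first start of Il1r1, which is not the one printed, against 9.56%. PU.1 stood ahead of Il1a, Pycard, Casp1 and the second start of Nlrp3, against 23.3%. Il1a, Il1b and Il18 held a TATA box, against 12.4%, at positions -32 to -27 in Il1a and -31 to -26 in Il1b but at -175 to -170 on the opposite strand in Il18. These matches describe letters only, and binding was not measured.

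Of the 13 libraries, 12 held between 14615904 and 16662580 estimated counts and CB1R KO 11 held 53463884. Cnr1, the targeted gene, was counted in every library, at 1.62 to 4.10 CPM (counts scaled to the library total) in control, 3.46 to 6.97 in WT bleomycin and 2.47 to 5.63 in CB1R KO bleomycin lungs. The tables do not say which part of Cnr1 the reads came from, so these counts do not check the genotype, and the group of each CB1R KO library rests on its label. Control libraries 3 and 26 stood apart from controls 21 and 24. The summed CPM of 10 neutrophil markers was 695 and 595 in controls 3 and 26 but 182 and 156 in controls 21 and 24. The adipocyte marker sum was 176 and 196 in controls 3 and 26 against 68.3 and 57.6, and the cardiac muscle marker sum 1035 and 1658 against 654 and 737. Where the call of a gene named below in WT bleomycin against control turned on these 2 libraries, its log2 fold change or adjusted p without them is given as well. In the labels, nothing but the mouse numbers says that replicates are separate mice, so p-values measure the spread between these libraries.

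Levels of different genes are compared in TPM, which are scaled for transcript length as well as for the library total. In control lungs the mean TPM was highest for Il1b, at 38.5 ± 28.1 (SD, n = 4), and Gsdmd, at 35.7 ± 3.19, and the Il1b libraries ranged so widely that these genes did not differ beyond their spread. Il18 followed at 23.3 ± 1.73, then Pycard at 16.9 ± 4.91, Il1r1 at 15.5 ± 1.43, Il1rn at 10.9 ± 2.91, Casp1 at 10.2 ± 2.50 and Il18bp at 8.65 ± 0.850 TPM. Nlrp3 and Il1a were the lowest, at 3.84 ± 1.52 and 3.62 ± 0.740 TPM, and did not differ beyond their spread, nor did Pycard from Il1r1 or Il1rn from Casp1. In WT bleomycin lungs Il1r1, at 38.1 ± 2.84 TPM (SD, n = 5), and Pycard, at 37.3 ± 2.85, stood level with Gsdmd, at 37.6 ± 3.16, and Il1b, at 36.1 ± 5.51. In CB1R KO bleomycin lungs the same 4 genes led, at 31.7 ± 2.61, 33.8 ± 4.73, 36.3 ± 3.25 and 36.9 ± 4.25 TPM (SD, n = 4).

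**Figure D1:**
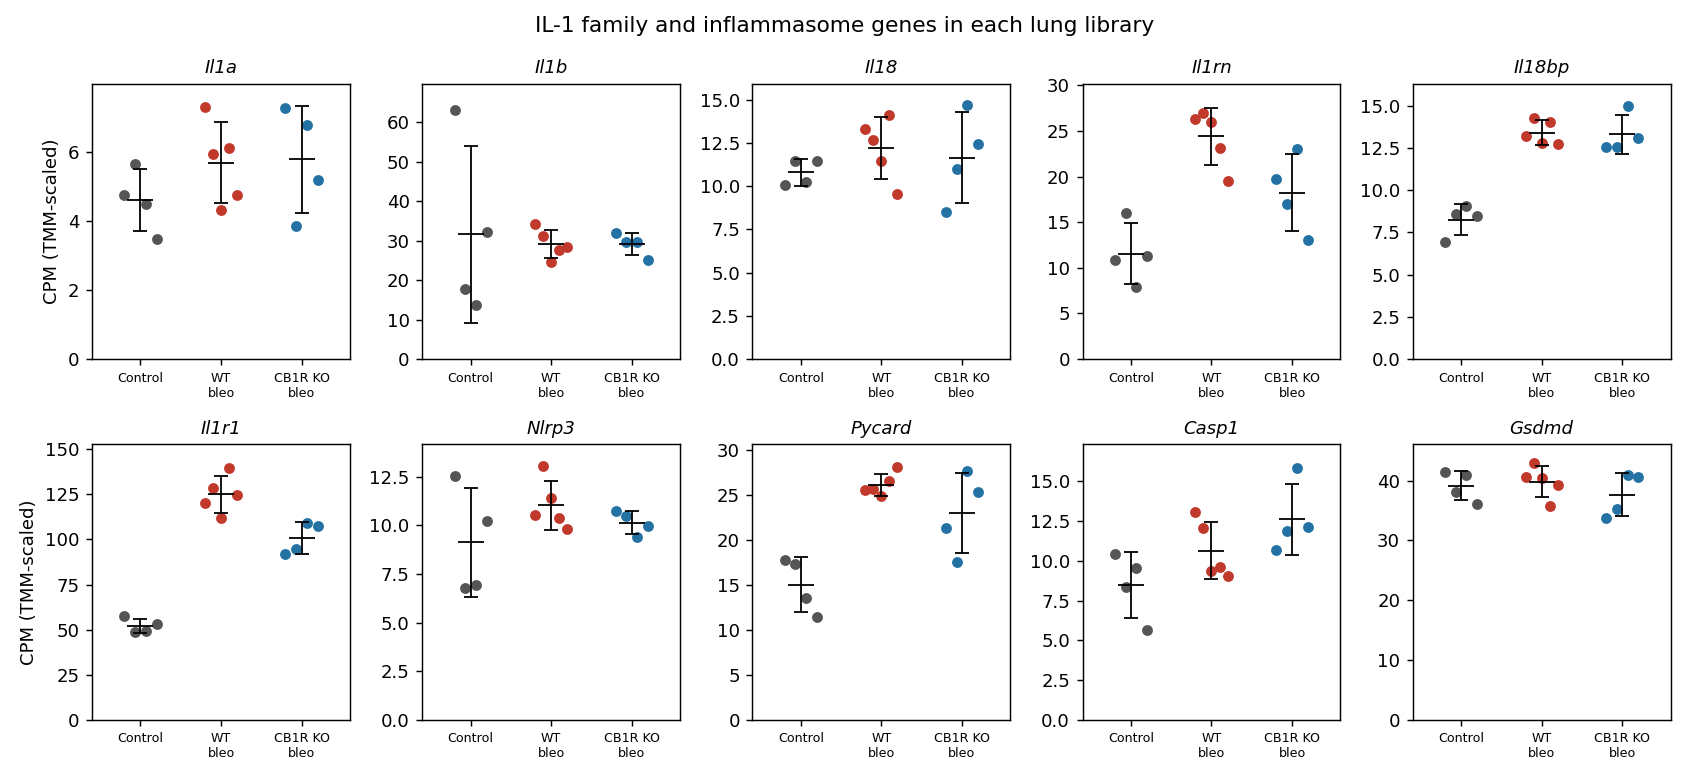
CPM, scaled for library size, of the 10 genes in each lung library (points), with the mean and SD of each group (bars), for 4 control, 5 WT bleomycin and 4 CB1R KO bleomycin libraries, each axis starting at 0. Il1rn, Il18bp, Il1r1 and Pycard were higher in every WT bleomycin library than in every control library, and Il1b ranged from 13.6 to 63.2 CPM among controls.

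Comparing WT bleomycin with control lungs asks how the system responded to the injury in the presence of CB1R. In WT lungs the inhibitors, the receptor and the adaptor rose while the ligands did not pass the test. Of the 10 members, 4 were higher and none was lower, and 25.0% of all genes tested were higher and 23.9% lower at an adjusted p under 0.05. The median log2 fold change of the members was 0.31, beside -0.01 over all genes. The same 4 members did not overlap between the groups, beside 21.5% of all genes, whose WT bleomycin libraries lay wholly above control. Each test was the quasi-likelihood test of edgeR, with p adjusted over the 15315 genes by the Benjamini-Hochberg method, and each fold change is given with its standard error (SE). Values between groups below are on the CPM scale.

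Of the ligands, Il1a encodes IL-1α, which is active without cleavage and is known as an alarm signal of dying cells. Its CPM was 4.75, 5.65, 4.48 and 3.48 in controls 3, 21, 24 and 26, and 7.28, 5.93, 4.31, 6.09 and 4.75 in WT bleomycin libraries 4, 2, 5, 4-B2 and 7. The groups overlapped, with a log2 fold change of 0.30 (SE 0.21, edgeR adjusted p = 0.260). Il18 encodes the precursor of IL-18, a cytokine that many epithelial cells make without stimulation. Its control libraries, at 10, 11.5, 10.2 and 11.5 CPM, lay inside the range of the WT bleomycin libraries, at 13.3, 12.7, 11.4, 14.1 and 9.56 CPM. The log2 fold change of Il18 was 0.18 (SE 0.15, edgeR adjusted p = 0.354).

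Il1b encodes IL-1β, the ligand that neutrophils and macrophages make when they are primed. Its CPM was 63.2, 17.8, 13.6 and 32.2 in controls 3, 21, 24 and 26, and 34.1, 31.1, 24.6, 27.6 and 28.3 in WT bleomycin libraries 4, 2, 5, 4-B2 and 7. Control 3 was above every bleomycin library and control 26 lay among them, whereas controls 21 and 24 were below all of them. With all 4 controls the log2 fold change was -0.12 (SE 0.32, edgeR adjusted p = 0.773), with a 95% interval from -0.80 to 0.56. Without controls 3 and 26, an alternative chosen after their marker levels were seen, it was 0.89 (edgeR adjusted p = 0.000562). That fit kept only controls 21 and 24. Controls 3 and 26 were the highest controls in Il1b, so leaving them out could only raise the value, and its p-value is no independent support for a rise. Without control 3 alone the log2 fold change was 0.46 (adjusted p = 0.0862), and on the TPM scale with all controls it was 0.15, so the sign of the difference depended on these choices.

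The neutrophil markers ordered the 4 controls as Il1b did, from control 3 through 26 and 21 to 24. Over the whole list of 10 markers, the summed CPM ranged from 156 to 695 in control, 108 to 173 in WT bleomycin and 115 to 223 in CB1R KO bleomycin lungs. Of 8 markers tested, 6 were lower in WT bleomycin than in control lungs and none was higher. Over all genes in that fit 23.9% were lower and 25.0% higher. Among the 6 were S100a8 and S100a9, which encode the calprotectin subunits, and Csf3r, the receptor of G-CSF. Their log2 fold changes were -1.90, -2.06 and -1.89. Without controls 3 and 26 they were -0.22, -0.53 and -0.77 (edgeR adjusted p = 0.612, 0.249 and 0.0297), and 2 of the 8 markers, Csf3r and Mmp9, were lower and 1, Mmp8, higher, beside 17.4% of all genes lower and 19.9% higher in that fit. Ly6g and Camp, both defining for neutrophils, were close to 0 throughout, at 0.06 to 0.72 CPM for Ly6g and 0.06 to 1.43 CPM for Camp. The 9 bleomycin libraries, all above controls 21 and 24 in Il1b, had neutrophil marker sums of 108 to 223 CPM, beside 182 and 156 in those controls. The part of neutrophil RNA, and of the adipocyte and cardiac RNA that moved with it, in the Il1b difference was not tested, and in whole-lung RNA fewer cells of a type and less RNA per cell cannot be told apart.

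**Figure D2:**
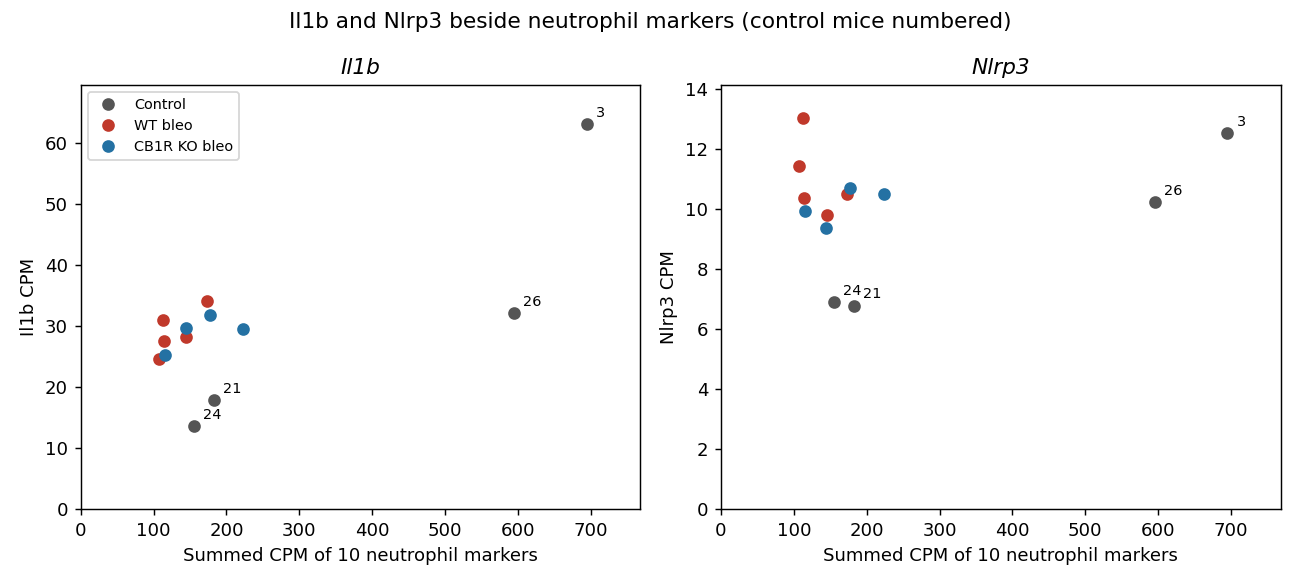
CPM of Il1b (left) and Nlrp3 (right) in each library against the summed CPM of 10 neutrophil markers, with the control mice numbered and both axes starting at 0. Controls 3 and 26 lie far to the right at 695 and 595 summed CPM, and the bleomycin libraries of both genotypes lie between 108 and 223.

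Of the inhibitors, Il1rn rose with bleomycin in WT lungs. Its CPM was 10.9, 16, 7.94 and 11.3 in controls 3, 21, 24 and 26, and 26.4, 27, 26, 23.2 and 19.5 in WT bleomycin libraries 4, 2, 5, 4-B2 and 7. The lowest WT bleomycin library was above the highest control, with a log2 fold change of 1.08 (SE 0.19, edgeR adjusted p = 0.000344). Il18bp was 6.95, 8.59, 9.03 and 8.44 CPM in control and 13.2, 14.3, 12.8, 14 and 12.7 CPM in WT bleomycin libraries. These groups were narrow and well separated, with a log2 fold change of 0.70 (SE 0.10, edgeR adjusted p = 6.36e-05).

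The receptor Il1r1 had the largest log2 fold change of the 10 members. Its CPM was 57.4, 48.9, 49.2 and 53 in controls 3, 21, 24 and 26, and 120.2, 129, 112, 139.5 and 125 in WT bleomycin libraries 4, 2, 5, 4-B2 and 7. The gap between the groups, from 57.4 to 112 CPM, was wider than the spread inside either, and the log2 fold change was 1.26 (SE 0.08, edgeR adjusted p = 6.9e-08).

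The inflammasome genes did not move together. The adaptor Pycard rose: its CPM was 17.8, 17.4, 13.6 and 11.4 in control and 25.5, 25.7, 24.9, 26.6 and 28.1 in WT bleomycin libraries, with no overlap and a log2 fold change of 0.80 (SE 0.14, edgeR adjusted p = 0.000354). The sensor Nlrp3 was 12.5, 6.79, 6.92 and 10.2 CPM in controls 3, 21, 24 and 26, and 10.5, 13, 11.4, 10.4 and 9.81 CPM in WT bleomycin libraries. As with Il1b, controls 3 and 26 reached the bleomycin range and controls 21 and 24 did not. Its log2 fold change was 0.27 with all controls (SE 0.17, edgeR adjusted p = 0.192), 0.47 without control 3 (adjusted p = 0.0208) and 0.69 without controls 3 and 26 (adjusted p = 0.00242). Controls 3 and 26 were the highest controls in Nlrp3 too, so leaving them out could only raise its value. The protease Casp1 was 10.5, 8.35, 9.54 and 5.67 CPM in control and 13, 12, 9.37, 9.62 and 9.07 CPM in WT bleomycin libraries, which overlapped (log2 fold change 0.32, SE 0.18, edgeR adjusted p = 0.155). Gsdmd, the pore-forming substrate of caspase-1, was 41.4, 38.2, 40.9 and 36.1 CPM in control and 40.7, 43, 40.4, 35.8 and 39.3 CPM in WT bleomycin libraries. The Gsdmd ranges lay on top of each other, and the 95% interval of its log2 fold change, from -0.14 to 0.19, was the narrowest of the 10 members.

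The 4 members that rose did so in lungs whose cell type markers had shifted as well. Of 12 markers of monocytes and interstitial macrophages, 11 rose in WT bleomycin lungs, beside 25.0% of all genes, and their summed CPM ranged from 425 to 556 in control, 1329 to 1552 in WT bleomycin and 972 to 1490 in CB1R KO bleomycin lungs. The fibroblast markers did not move together: of 9, 4 rose and 2, Npnt and Tcf21, fell, beside 25.0% and 23.9% of all genes. The 3 collagen markers Col1a1, Col1a2 and Col3a1 summed to 821 to 1286, 5612 to 8513 and 3786 to 6607 CPM in the same order, whereas the other 6 summed to 1856 to 2032, 1246 to 1614 and 1314 to 1881 CPM. The sum of 9 type II alveolar cell markers was 19413 to 23171, 12422 to 14122 and 14453 to 22560 CPM. Of 10 alveolar macrophage markers, 5 fell and 1 rose in WT bleomycin lungs, beside 23.9% and 25.0% of all genes. Among those that fell were Fabp1, Krt79 and Ear1, with log2 fold changes of -3.67, -2.41 and -2.45. Chil3, the most abundant of the 10 markers, ranged from 375 to 1559, 500.5 to 867 and 435 to 896 CPM, and the other 9 summed to 311 to 346, 176 to 291 and 230.0 to 298 CPM. No marker of these lists was at 0 in a whole group. The part of these shifts in the rise of Il1rn, Il18bp, Il1r1 and Pycard was not tested.

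Comparing CB1R KO with WT bleomycin lungs asks whether the deletion changed the system after the same injury. None of the 10 members passed an adjusted p of 0.05 with edgeR's quasi-likelihood test, beside 0.979% of all genes. At an unadjusted p under 0.05 there were 2 members, Il1rn and Il1r1, both lower, beside 17.0% of all genes. DESeq2 called 1 member, Il1r1, and limma on log2 TPM called none. The median log2 fold change of the members was -0.07, with values from -0.43 to 0.25, and that of all genes was 0.00. Only Il1r1 among the members did not overlap between the 2 groups, beside 3.10% of all genes, whose CB1R KO libraries lay wholly below WT.

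Il1r1 was 91.8, 94.9, 109 and 107 CPM in CB1R KO libraries 8, 9, 10 and 11, each below the lowest WT bleomycin library at 112 CPM and each above the highest control at 57.4 CPM. Against WT bleomycin its log2 fold change was -0.31 (SE 0.08, edgeR adjusted p = 0.0667), with a 95% interval from -0.47 to -0.15. DESeq2 gave -0.31 with an adjusted p of 0.00955, and edgeR without CB1R KO 10 gave -0.35 with an adjusted p of 0.0316. Over all 26 alternatives the adjusted p for Il1r1 ranged from 0.00955 to 0.349 and the sign did not change. Il1rn was 19.8, 17, 23 and 13.1 CPM in the CB1R KO libraries, where libraries 8 and 10 reached the WT range and 9 and 11 did not. Its log2 fold change against WT bleomycin was -0.43 (SE 0.18, edgeR adjusted p = 0.250), and no alternative called it. The sums of the collagen markers and of the monocyte and interstitial macrophage markers given above also reached lower values in lungs of CB1R KO mice, and their part in these differences was not tested.

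For the other 8 members the 95% interval of the difference between the genotypes held 0. The CB1R KO libraries held 12.6, 12.5, 15 and 13.1 CPM of Il18bp, inside or close to the WT range, and the 95% interval of the log2 fold change ran from -0.22 to 0.20. For Gsdmd, at 33.8, 35.3, 40.9 and 40.6 CPM, it ran from -0.24 to 0.08. Pycard, at 21.3, 17.6, 27.6 and 25.4 CPM, had an interval from -0.48 to 0.11, with library 9 at the level of the highest controls. Il1b, at 31.9, 29.6, 29.7 and 25.2 CPM, lay within the WT bleomycin range in every CB1R KO library, yet its interval from -0.68 to 0.67 was the widest, and the controls, which spread widely, entered the same fit. Nlrp3, at 10.7, 10.5, 9.38 and 9.95 CPM, had an interval from -0.48 to 0.23, Il18, at 8.50, 11, 14.7 and 12.4 CPM, from -0.38 to 0.25, and Il1a, at 7.26, 3.86, 6.77 and 5.19 CPM, from -0.43 to 0.46. Casp1 was 10.7, 11.9, 15.8 and 12.1 CPM, its median was the higher of the 2 genotypes, and the interval ran from -0.13 to 0.62.

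**Figure D3:**
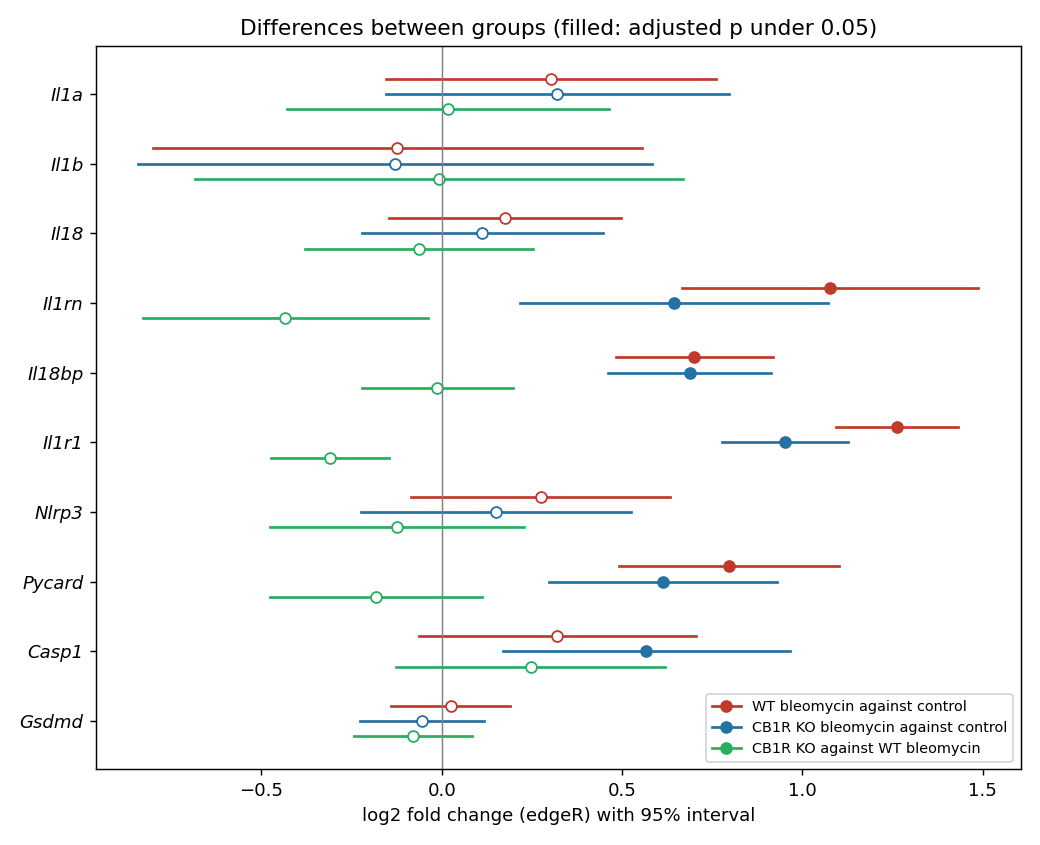
Log2 fold changes of the 10 genes from edgeR's quasi-likelihood fit (points) with 95% intervals (lines) for WT bleomycin against control, CB1R KO bleomycin against control, and CB1R KO against WT bleomycin, filled where the adjusted p was under 0.05. The filled points are Il1rn, Il18bp, Il1r1 and Pycard in both comparisons with control and Casp1 in CB1R KO bleomycin against control, and none is filled between the genotypes.

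Comparing CB1R KO bleomycin with control lungs asks how injured lungs without CB1R differed from uninjured WT lungs. It shares its control libraries with the first comparison, so the values are given side by side. In this comparison 5 members were higher and none lower, beside 19.0% of all genes higher and 16.3% lower. The log2 fold change was 0.95 for Il1r1 (SE 0.08, edgeR adjusted p = 2.14e-06), against 1.26 in WT bleomycin lungs. It was 0.69 for Il18bp (adjusted p = 0.000219) against 0.70, 0.61 for Pycard (adjusted p = 0.00533) against 0.80, and 0.64 for Il1rn (adjusted p = 0.0215) against 1.08. With limma on log2(TPM + 1) and log2(TPM + 0.1), Pycard had larger values, 0.99 and 1.03 in CB1R KO against 1.14 and 1.18 in WT bleomycin lungs. As a share of the log2 fold change in WT lungs, that in CB1R KO lungs was 98.2% for Il18bp and 77.1% for Pycard. It was 75.4% for Il1r1 and 59.8% for Il1rn. These shares have no interval, and for Pycard the limma values above give a higher one. Between the genotypes the edgeR adjusted p was 0.962, 0.530, 0.0667 and 0.250 in the same order. Without uninjured CB1R KO lungs, the shares do not measure how much of a bleomycin response the deletion removed. The fifth member was Casp1, at 0.57 (SE 0.19, edgeR adjusted p = 0.0284) against 0.32, and its difference between the genotypes was 0.25 (adjusted p = 0.501), so the call against control in one genotype alone does not show that the genotypes differ. Il18bp, Il1r1 and Casp1 lay wholly above control, 3 of 10, beside 17.7% of all genes. The calls of Il1rn and Casp1 were less stable than the others. Il1rn lost its call without control 24 (adjusted p = 0.0650) and without CB1R KO 10 (adjusted p = 0.0728), and Casp1 without control 21 (adjusted p = 0.0594), control 26 (adjusted p = 0.0784) or CB1R KO 10 (adjusted p = 0.0930). Casp1 was also not called by limma on log2 TPM with either pseudocount.

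Il1b and Nlrp3 behaved against control as they did in WT mice. The log2 fold change of Il1b in CB1R KO bleomycin lungs was -0.13 with all controls (edgeR adjusted p = 0.791) and 0.88 without controls 3 and 26 (adjusted p = 0.00149). That of Nlrp3 was 0.15 with all controls (adjusted p = 0.534) and 0.56 without those libraries (adjusted p = 0.0144). Controls 3 and 26 were the highest controls in both genes, so here too leaving them out could only raise the values. Without controls 3 and 26, Il1rn and Casp1 were no longer called in this comparison, with adjusted p values of 0.125 and 0.0823.

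The balance of each inhibitor to its ligand was taken as a ratio of TPM within a library, as a description with no test. Il18bp to Il18 was 0.335, 0.369, 0.417 and 0.369 in control, 0.492, 0.556, 0.543, 0.458 and 0.640 in WT bleomycin and 0.742, 0.532, 0.496 and 0.603 in CB1R KO bleomycin libraries. Every bleomycin library of either genotype was above every control, and the genotypes overlapped. Il1rn to Il1a was 3.23, 3.11, 2.03 and 3.79 in control, 4.22, 5.40, 6.69, 4.20 and 4.67 in WT bleomycin and 3.20, 5.21, 3.99 and 2.92 in CB1R KO bleomycin libraries. Here the WT bleomycin libraries were all above the controls, and the CB1R KO libraries overlapped both groups. Il1rn to Il1b was 0.158, 0.641, 0.437 and 0.267 in controls 3, 21, 24 and 26, so that controls 21 and 24 lay inside the range of the bleomycin libraries and controls 3 and 26 below all of them. It was 0.587, 0.672, 0.766, 0.603 and 0.509 in WT bleomycin and 0.475, 0.443, 0.593 and 0.396 in CB1R KO bleomycin libraries, and IL-1β transcripts exceeded those of the antagonist in every library.

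**Figure D4:**
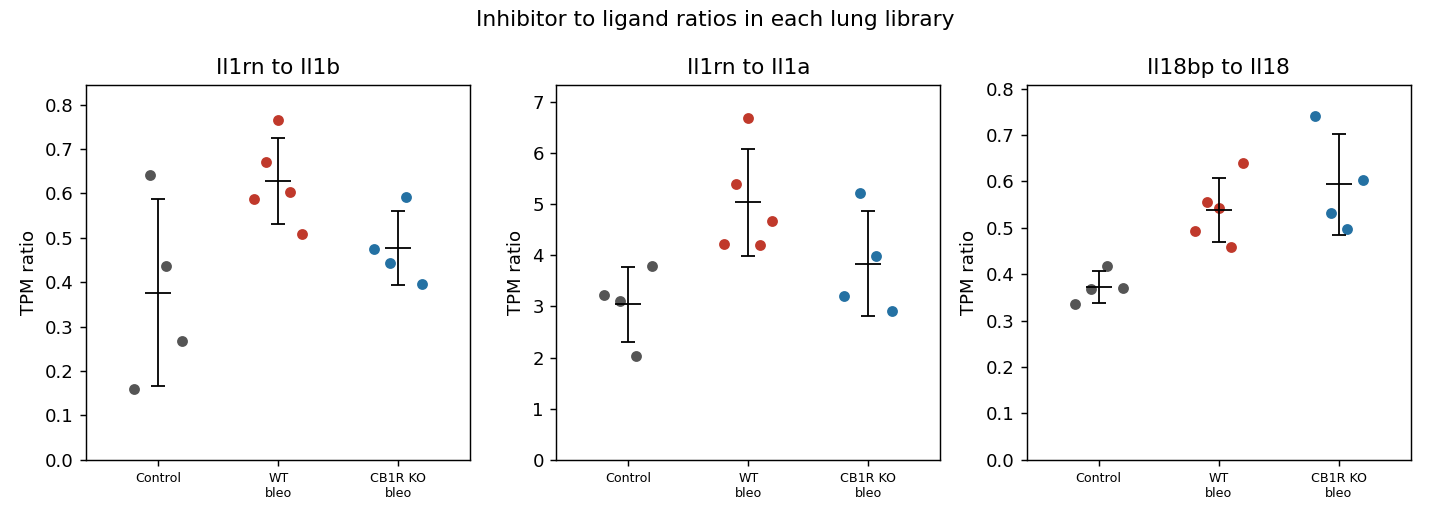
Ratio of TPM of Il1rn to Il1b, Il1rn to Il1a and Il18bp to Il18 in each library (points) with the mean and SD of each group (bars) for 4 control, 5 WT bleomycin and 4 CB1R KO bleomycin libraries, each axis starting at 0. For Il18bp to Il18 all bleomycin libraries, from 0.458 upward, lie above the controls, whose highest value is 0.417.

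The ratio of CPM to TPM of a gene within a library grows with the length of the transcripts to which its reads were assigned, so it reads the mix of isoforms. It was divided by the median ratio of all genes in the library. For Casp1 it was 0.441 to 0.476 in control, 0.483 to 0.532 in WT bleomycin and 0.517 to 0.532 in CB1R KO bleomycin libraries. Both bleomycin groups lay wholly above control, beside 5.72% and 5.20% of all genes whose groups did not overlap in either direction, although Casp1 CPM itself overlapped between WT bleomycin and control. For Pycard the ratio went the other way, at 0.430 to 0.576 in control, 0.355 to 0.437 in WT bleomycin and 0.362 to 0.438 in CB1R KO bleomycin libraries, where the lowest control overlapped both bleomycin groups. Both genes were picked out after their ratios were seen, and single isoforms were not analysed here.

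The other genes of the pathway were taken from 4 lists chosen by name. Of 13 other IL-1 family ligands and receptors, 9 passed the low-count filter. In WT bleomycin against control lungs 3 were higher and 2 lower, beside 25.0% and 23.9% of all genes, with a median log2 fold change of 0.33. Those that rose were receptors: Il1rl2, the IL-36 receptor, at 1.0 (edgeR adjusted p = 3.28e-06), Il1rl1, the IL-33 receptor ST2, at 0.81 (adjusted p = 0.00123), and Il18r1, the binding chain of the IL-18 receptor, at 0.44 (adjusted p = 0.0242). Il18r1 lost its call without control 21, 24 or 26 (adjusted p = 0.0755, 0.0635 and 0.0870) and with lower-case titles only (adjusted p = 0.130), and without control 3 its value was 0.67. Il18rap, the partner chain of the IL-18 receptor, fell by 0.54 on the log2 scale (edgeR adjusted p = 0.0149), which was lost without control 3 (adjusted p = 0.0511), and without controls 3 and 26 its log2 fold change was -0.28 (adjusted p = 0.274). Sigirr, an IL-1 receptor relative known to restrain IL-1 and Toll-like receptor signalling, fell by 0.53 on the log2 scale (edgeR adjusted p = 0.000340).

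Sigirr was the one gene of this list that edgeR called between the genotypes. DESeq2 called 2, Sigirr and Il1rl2, and limma on log2 TPM called none. At an unadjusted p under 0.05 with edgeR there were 5 of the 9, in both directions, beside 17.0% of all genes. The CPM of Sigirr was 26.6, 28.9, 26.8 and 24.2 in control, 16.3, 19.5, 19.7, 15.8 and 20.4 in WT bleomycin and 27.5, 22.5, 24.1 and 26.6 in CB1R KO bleomycin libraries. The WT bleomycin libraries were below every other library, and the CB1R KO libraries overlapped the controls. Against WT bleomycin the log2 fold change in CB1R KO lungs was 0.46 (SE 0.09, edgeR adjusted p = 0.0389). The call was lost without any one of control 24, the WT bleomycin libraries or CB1R KO 8, 9 or 11, with adjusted p values from 0.0520 to 0.131, and with WT bleomycin 4 and 4-B2 summed (adjusted p = 0.0546), while the log2 fold change stayed between 0.41 and 0.51. Over all 26 alternatives the adjusted p for Sigirr reached 0.171. Type II alveolar cell markers moved in the same direction as Sigirr, 4 of 9 being called higher in CB1R KO lungs, beside 0.979% of all genes called in either direction. This was not particular to that cell type. All 9 T and NK cell markers tested and all 8 endothelial markers had values above 0, with 2 and 1 called. Of 12 monocyte and interstitial macrophage markers 10 had values below 0, with none called. The part of these shifts in the difference was not tested.

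Of 24 other inflammasome and pore genes, 21 were tested, and 10 rose and 3 fell in WT bleomycin lungs against control, beside 25.0% and 23.9% of all genes, with a median log2 fold change of 0.45. Among the genes that rose were Nlrp1b, a sensor, at 1.88, Naip2, which recognises bacterial secretion proteins, at 0.99, Casp4, the caspase of the noncanonical inflammasome, at 0.96, and Ninj1, which ruptures the membrane of dying cells, at 0.80. Nlrp1b and Naip2 have near-identical relatives among which reads could have been split, so their values are uncertain. Nlrp12 fell by 1.90 on the log2 scale, Txnip, which binds thioredoxin, by 1.09, and Nek7, a partner of NLRP3, by 0.15. Nlrp12 was no longer called without controls 3 and 26, where its log2 fold change was -1.16 (edgeR adjusted p = 0.0505), nor was Nek7 (adjusted p = 0.0818). Nek7 also lost its call without control 24 or WT bleomycin 2 or 5, with adjusted p values of 0.0850, 0.0561 and 0.0589, and with limma on log2 TPM. Between the genotypes none of the 21 passed edgeR's adjusted p of 0.05, and 3 had an unadjusted p under 0.05, beside 17.0% of all genes. DESeq2 called 2, Txnip and Ninj1, and limma on log2 TPM called none.

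Most signalling genes below the receptor did not pass the test. Of 19 genes from the receptor adaptor to the NF-κB subunits, 4 rose and 1 fell in WT bleomycin lungs against control, beside 25.0% and 23.9% of all genes, with a median log2 fold change of -0.01. The NF-κB subunit genes Relb and Nfkb2 rose by 1.04 and 0.86 on the log2 scale, the adaptor Myd88 by 0.61 and the kinase Irak4 by 0.44, and the kinase Ikbkb fell by 0.27. Between the genotypes edgeR, DESeq2 and limma each called none of the 19, and 2 had an unadjusted p under 0.05 with edgeR, beside 17.0% of all genes.

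Genes that IL-1 and NF-κB are known to induce had the highest median of the 4 lists. Of 19 tested, 13 rose and 1 fell in WT bleomycin lungs against control, beside 25.0% and 23.9% of all genes, with a median log2 fold change of 1.24. Saa3, an acute-phase protein, rose by 4.36 on the log2 scale, the monocyte chemokine Ccl2 by 3.48, Ccl20 by 2.99, Il6 by 2.36 and the iron-binding protein Lcn2 by 2.21, whereas Nfkbia, which encodes the inhibitor IκBα, fell by 0.75. Ccl20 lay near the detection limit, at 0.06 to 1.32 CPM over all libraries. Many of these genes are also induced by other cytokines, and which signal acted was not measured.

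Ccl2 was the one target that edgeR called between the genotypes. DESeq2 called Ccl2 and Il6, and limma on log2 TPM called none. The CPM of Ccl2 was 0.654, 0.781, 0.576 and 1.48 in control, 9.69, 8.83, 8.56, 11.1 and 10.9 in WT bleomycin and 5.30, 1.81, 5.90 and 3.25 in CB1R KO bleomycin libraries. The CB1R KO libraries lay between the other groups without overlap, with a log2 fold change of -1.29 against WT bleomycin (SE 0.29, edgeR adjusted p = 0.0478). The call was lost without any one of control 21 or 24, the WT bleomycin libraries or CB1R KO 8, 9 or 11, with adjusted p values from 0.0553 to 0.122, and with WT bleomycin 4 and 4-B2 summed (adjusted p = 0.0656), and the log2 fold change stayed between -1.51 and -1.05. Over all 25 alternatives the adjusted p for Ccl2 reached 0.236. Between the genotypes 4 of the 19 targets had an unadjusted p under 0.05 with edgeR, beside 17.0% of all genes. Their median log2 fold change was -0.25 and 16 of 19 were below 0, where the median of all genes was 0.00. The list was chosen with earlier results known.

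**Figure D5:**
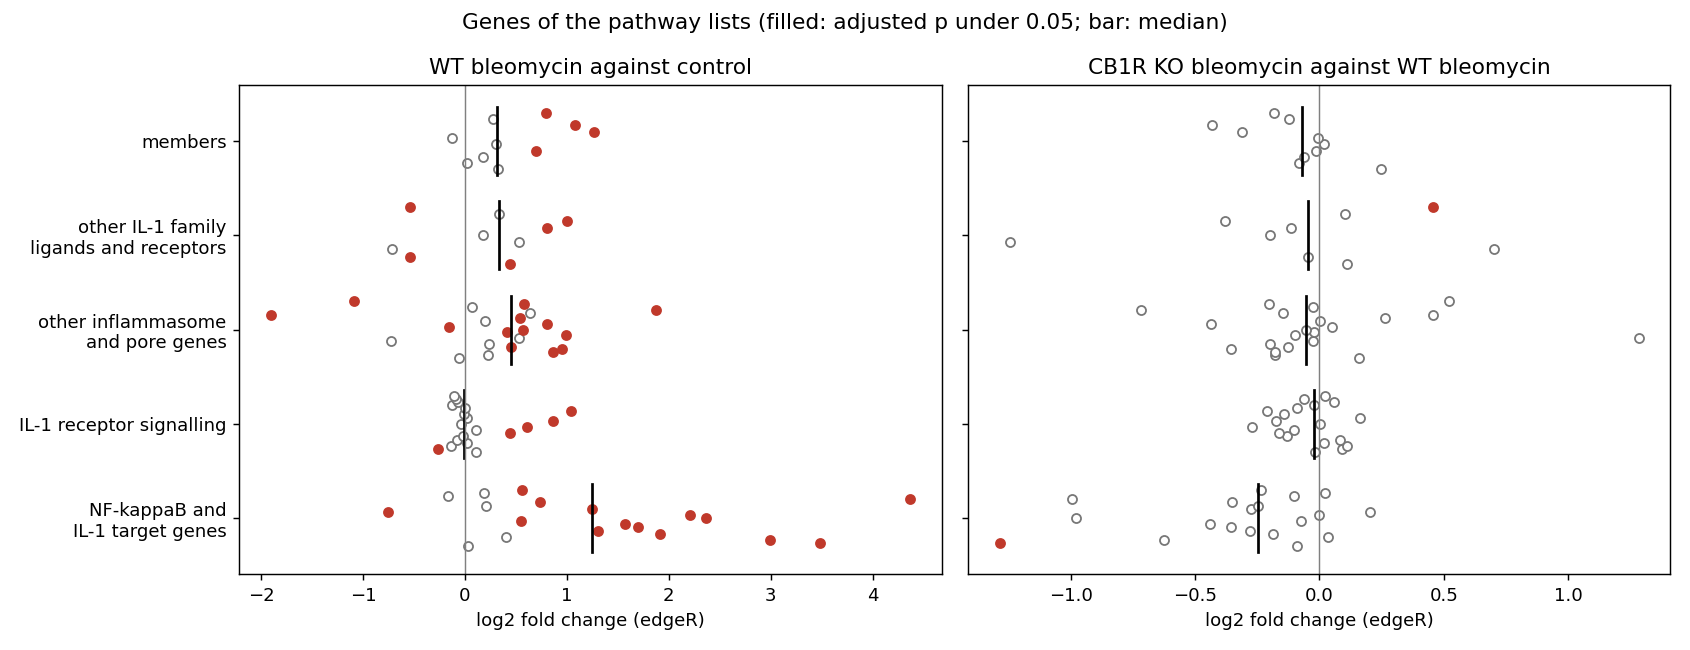
Log2 fold changes from edgeR's quasi-likelihood fit of the 10 genes and of 4 lists of related genes (points, 1 per gene, filled where the adjusted p was under 0.05) with the median of each list (bars), for WT bleomycin against control (left) and CB1R KO against WT bleomycin (right, on its own scale). On the left the target genes have the highest median at 1.24, and on the right Sigirr at 0.46 and Ccl2 at -1.29 are the filled points.

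For each member, the genes with the most similar log2 CPM over the 13 libraries were found as a description. The libraries share their groups and depths, so beside the Pearson correlation over all libraries that of the deviations from the group means is given for several pairs. The gene nearest to Il1b was Gm10521 (0.90, and 0.91 within groups), followed by Selplg, the selectin ligand of leukocytes (0.89, and 0.92 within groups), and Olfr1380. Those nearest to Nlrp3 were Cd300ld, Igsf6 and Sphk2 (0.93, 0.93 and 0.90), and Il1b and Nlrp3 correlated with each other at 0.80, and at 0.87 within groups, to which controls 3 and 26 contributed. Il1r1 was nearest to Tes, Tuba1c and Adamts4 (0.99, 0.98 and 0.98), Pycard to Jak3, Nop9 and Cotl1 (0.98, 0.97 and 0.97), and Il1rn to Syn1, Ubtd2 and Nkiras2 (0.95, 0.94 and 0.94). Among the genes nearest to Il18bp were Tgfbr1, a TGF-β receptor, and Lap3 (0.98 each). Within groups the value for Il1r1 and Tes was 0.67 and that for Il18bp and Tgfbr1 was 0.81. Casp1 was nearest to Cul4b, Mob1a and Hmgcs1 (0.93, 0.91 and 0.90), Il18 to Gpn1, Best1 and Mcemp1 (0.87, 0.83 and 0.83), Gsdmd to Scn2b, F2rl3 and Fmnl3 (0.85, 0.82 and 0.82), and Il1a to Utp15, Mllt11 and Gm49336 (0.84, 0.82 and 0.81).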

How the data were processed

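Lung RNA was enriched for poly(A) with oligo(dT) beads, prepared with the NEBNext Ultra II kit and sequenced from both ends on an Illumina HiSeq. The authors quantified reads with Kallisto on an Ensembl reference (build GRCm39 per the submitters' processing notes) and deposited estimated counts, which are not normalized, and TPM values, both summed per gene symbol over protein-coding transcripts. Of the count values, 70.5% were not whole. The 13 single-sample tables repeated the count table, and 1 TPM column of no sample was not used. Library totals are given in the report. They count sampled fragments, and the standard errors cover the spread between libraries and counting error together.

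Groups follow the labels for treatment and genotype. Estimated counts were rounded, filtered with filterByExpr, scaled by TMM and fitted in 3 groups, without covariates, with edgeR 4.0.16 (quasi-likelihood, R 4.3.3), at a Benjamini-Hochberg adjusted p of 0.05 over 15315 genes. CPM were scaled by TMM, and log2 CPM used a prior count of 2. Ratios used the deposited TPM. On simulated data, 165 and 174 of 200 genes changed 2-fold were recovered with the right sign in WT bleomycin against control and CB1R KO against WT bleomycin, with 11 and 9 false calls among 15292 and 15308 genes. The changed genes were drawn from those above a minimum mean count, and no other gene was changed. Member differences between the genotypes, from -0.43 to 0.25 on the log2 scale, were smaller than 2-fold, so these rates do not apply to them. Alternatives were DESeq2 1.42.0, limma 3.58.1 on log2(TPM + 1) and log2(TPM + 0.1), RLE and upper-quartile scaling, no filter, at least 10 counts in every library, 2 groups only, the style of the sample titles as a term, lower-case titles only, and each library left out. Thinning CB1R KO 11, leaving out controls 3 and 26 and summing WT bleomycin 4 and 4-B2 were chosen after seeing the data. Promoters are from RefSeq (GRCm38.p6), another build than that of the counts, matched by symbol, and were searched in Python 3.11.15.

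The members and all lists were chosen with earlier results of these data known. The text names the 10 members, Cnr1, the genes of each pathway list called in CB1R KO against WT bleomycin, up to 5 genes of each list and direction with the largest change among those called in WT bleomycin against control, genes of marker lists, and the 3 genes with the highest Pearson correlation with each member. Other marker lists that were summed, among them those of type I, ciliated, and B and plasma cells, are not described. The time-course and metabolomic data of the study were not analysed here. Some genes of the lists are counted but not named here.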

Additional observations from a re-analysis of the deposited data

How the results depend on the processing

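No paired analysis was possible because the groups share no mouse numbers. Il1r1, Il18bp and Pycard were called against the WT controls in both bleomycin groups under all 26 alternatives, and Il1rn in the WT bleomycin group. In WT bleomycin against control the number of members called was 4 to 6 over the alternatives and 4 to 5 with 1 library left out. The 6 were reached without controls 3 and 26, the highest controls in Il1b and Nlrp3. In that fit the log2 fold change of Il1b turned to 0.89 in WT and 0.88 in CB1R KO mice (values of -0.12 and -0.13 with all controls). Casp1 was called in WT mice only with the style of the titles as a term (0.40, adjusted p = 0.0392 in edgeR). In CB1R KO bleomycin against control, the number called was 3 with lower-case titles only and 3 to 5 with 1 library left out, where Casp1 held its call in 19 and Il1rn in 22 of 26 alternatives. In CB1R KO against WT bleomycin, DESeq2 called 1 member, and leaving out 1 library gave 0 to 1. Over all genes in that comparison, 150 were called by edgeR, 640 by DESeq2, 25 and 1 by limma with a pseudocount of 1 and 0.1, 88 with 2 groups only, 41 with the title style as a term, 6 with lower-case titles only, and 1 to 653 with 1 library left out. CB1R KO 9 gave the 1 and CB1R KO 10 the 653 when left out. The cause of these shifts was not tested, except that fewer libraries were fitted. Every CB1R KO library has a lower-case title, whereas control 26 and WT bleomycin 4-B2 and 7 have capitals. Title style is therefore not balanced between the genotypes, and the labels do not say what it stands for. Sigirr kept its call between the genotypes in 10 of 26 alternatives and Ccl2 in 8 of 25, since a count minimum of 10 in every library left it untested. With CPM in place of TPM the ratio of Il1rn to Il1b was 0.845 in WT and 0.622 in CB1R KO bleomycin lungs, and that of Il18bp to Il18 was 0.765, 1.11 and 1.17 in control, WT and CB1R KO lungs. No scaling moved the median of all genes by over 0.1. Summing WT bleomycin 4 and 4-B2 changed no call of a member. On log2(TPM + 1) the values of 3 genes low in TPM, Nlrp1b, Nlrp12 and Ccl20, were smaller in WT bleomycin against control, at 1.03, -0.53 and 1.24. With 4 or 5 libraries a group, 95% intervals of members between the genotypes were 0.33 (Il1r1 and Gsdmd) to 1.35 (Il1b) wide on the log2 scale.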

Other observations

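Of 30 combinations of a member and a group, none held a mouse that stood outside Dixon's 95% limit in CPM. Control 3 at 63.2 CPM of Il1b was the highest value in its group, and with 4 mice in that group its distance from the next control did not reach the limit.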
